A study of Bos taurus with 12 samples.

Results

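The genes described here are those of glycolysis and of the response to low oxygen in cattle embryos around the start of conceptus elongation. A list of 35 gene symbols was looked up among the probe sets of an Affymetrix bovine expression array, and each gene was represented by the probe set that carried its symbol alone and had the highest mean over the 12 arrays. In all 32 of the 35 genes were measured, of 9155 genes with a symbol of their own and 24016 probe sets tested. No probe set carried HK2, PDK1 or CA9 alone, so these 3 genes were not measured here. Background was taken as a log2 intensity of 3.39, the 99th percentile of 48 negative control probe sets. Of the 32 genes, 26 lay above it on all 12 arrays and 30 on at least 3, while ENO2 stayed at the floor of the values on all arrays and EGLN3 exceeded background on 1 array only.

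Glycolysis splits glucose into pyruvate in the cytosol, with a gain of ATP that needs no oxygen, and lactate dehydrogenase turns pyruvate into lactate. Under low oxygen the prolyl hydroxylases of the EGLN family lose activity, the transcription factor subunits HIF1A and EPAS1 escape breakdown, and genes for glycolytic enzymes, collagen hydroxylases, vessel growth and mitophagy are transcribed. HIF activity is set largely at the level of the protein, which arrays do not measure. The bovine blastocyst raises its glucose use as it forms and expands, and the oviduct and uterus hold less oxygen than air.

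The study produced blastocysts by superovulation of donor animals (in vivo) or by IVF (in vitro) and froze some of them on Day 7. The others went, 10 to a recipient, into synchronized heifers, from which conceptuses were recovered on Day 13. Day 13 embryos of both origins had therefore grown in heifers from Day 7 on, and the in vitro group differs in its history up to transfer. Each of the 4 groups holds 3 pools with 1 array each, with 25 blastocysts a pool at Day 7 and 5 conceptuses a pool at Day 13, and 75 ng of total RNA entered a labelling protocol of 2 cycles. The labels call the pools biological replicates and do not give the breed, the culture medium and oxygen, or whether pools share donors or recipients, so p-values measure the spread between these pools. Pools hold whole embryos, in which fewer cells of a type and less RNA per cell cannot be told apart.

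The arrays differed in ways that touch the genes below. The GAPDH control probe sets lie at the 3' end, the middle and the 5' end of the transcript, and their 3' minus 5' gap falls when labelling reaches further. That gap was 5.58 to 5.65 in Day 7 in vivo arrays, 3.40 to 4.19 in Day 7 in vitro, 2.85 to 4.62 in Day 13 in vivo and 2.53 to 4.17 in Day 13 in vitro arrays. Poly-A spike-ins, added before labelling, averaged between 13.34 and 14.96 in the first 3 groups and read 9.27, 10.50 and 12.99 in the Day 13 in vitro arrays. Hybridization controls averaged between 11.84 and 13.29 in the first 3 groups and read 10.38, 10.84 and 11.96 in the Day 13 in vitro arrays. Trophoblast markers were above background in each group, 11 to 13 of 13 measured, with array means from 7.32 to 8.17 at Day 7 and from 9.13 to 10.85 at Day 13. Single markers went both ways. TKDP1 went from 6.93 to 14.55 in vivo and from 6.40 to 14.57 in vitro. PAG2 went from 8.21 to 6.29 and from 8.43 to 7.43, and TEAD4 from 7.25 to 7.22 and from 7.90 to 5.64. IFNT2 and PTGS2 were lower at Day 13 than at Day 7 in vivo and higher in vitro. Of 9 uterine markers MSX1 exceeded background on 12 arrays, MUC1 on 1 array and the others on none. PGR and ESR1 lay at or near the floor. Of 9 blood and immune markers HBB was above background on 7 arrays (mean 7.27 in both Day 7 groups) and ALAS2 on 3. HBA and PTPRC lay at the floor of 2.23 in all groups, and CD3E, CD79A, CD14, CD68 and ITGAM exceeded background on no array. Of 5 endothelial markers only PECAM1 exceeded background, and CDH5, TEK, VWF and KDR did so on no array. PECAM1 was at 6.01 and 6.11 in the Day 7 in vivo and in vitro groups and at 4.0 and 4.04 at Day 13. Hypoblast and epiblast markers moved as well. Array means over 10 hypoblast markers ran from 5.10 to 5.46 at Day 7 and from 6.46 to 7.00 at Day 13 in vivo, and from 5.30 to 5.42 and 5.18 to 5.82 in vitro, with 4 or 5 of the 10 above background in a whole group and HNF4A and TTR on no array. Those above background on all 12 arrays went both ways. APOA1 went from 7.75 to 13.22 in vivo and from 9.76 to 11.49 in vitro, and APOE from 6.41 to 10.46 and from 6.75 to 8.46. GATA6 went from 13.60 to 12.22 and from 13.55 to 11.75, and PDGFRA from 11.38 to 10.64 and from 9.63 to 8.86. Of 3 epiblast markers POU5F1 went from 9.33 to 7.69 in vivo and from 10.78 to 4.98 in vitro, CRIPTO from 6.47 to 11.32 and from 2.98 to 10.03, and SOX2 was above background on 2 arrays. The part of these measures in the results was not tested, except where a fit with one of them is given.

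The first question was how the genes changed from Day 7 to Day 13 in embryos made in vivo. The transcription factor subunit genes HIF1A and EPAS1, 2 collagen hydroxylases and 3 genes of glycolysis rose, and the mitophagy receptor gene BNIP3L fell. Of the 32 genes 8 passed an adjusted p below 0.05 (limma, Benjamini-Hochberg over all 24016 probe sets), 7 higher and 1 lower at Day 13, or 25.0%, where 3.79% of all probe sets passed, 1.7% higher and 2.09% lower. The median log2 difference over the 32 genes was 0.70, and over the 10591 probe sets above background it was -0.02. The GAPDH gap was smaller at Day 13 than at Day 7 in vivo, and with it as a covariate 4 of the 32 genes passed, 2 higher (EPAS1 and PLOD2) and 2 lower (GPI and BNIP3L), with a median of 0.06 and 16 of 32 differences above 0. GAPDH is 1 of the 32 genes, and whether its level enters through this covariate was not tested. With the cyclophilin gap 3 passed, EPAS1, PLOD2 and BNIP3L, with a median of 0.48. Centring on ribosomal protein genes gave 10 calls, 8 higher and 2 lower, and a median of 0.22. In embryos made in vitro 6 of the 32 genes passed, 3 higher and 3 lower, or 18.8%, where 7.51% of all probe sets passed, 3.55% higher and 3.96% lower. The median there was 0.13 over the genes and -0.02 over the probe sets above background. An unadjusted p below 0.05 was found for 14 of the 32 genes in vivo and 12 in vitro, against 14% and 19.2% of all probe sets. The days did not overlap for 13 genes higher and 2 lower in vivo, where 6.68% and 8.34% of all probe sets did so, and for 8 higher and 7 lower in vitro, where 10.4% and 11.1% did so. Shares over all probe sets, here and below, are not like for like. Of the 24016 probe sets 10591 lay above background on at least 3 arrays, against 30 of the 32 genes. The shares without overlap of the days among those 10591 are not given here. When only probe sets above background were tested 10 of the 32 genes passed in vivo, with 14% of those probe sets, and 9 in vitro, with 27.2%. These include PFKM in vivo and ALDOC in vitro, which met that filter only through the group where they are high. The pools of the in vivo and in vitro day comparisons are separate. In both, HIF1A, EPAS1 and PLOD2 rose and BNIP3L fell, and 26 of the 32 genes had a difference of the same sign. The share of all probe sets with the same sign in both is not given here, so this count has no measure beside it.

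**Figure D1:**
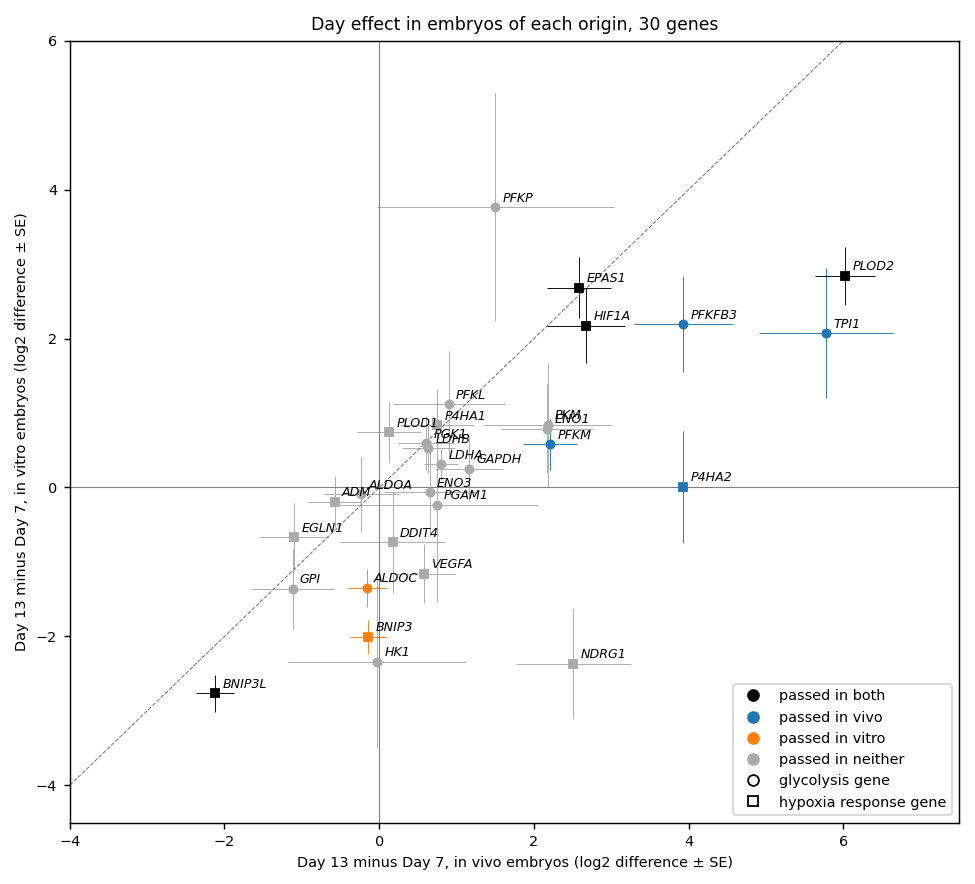
Change from Day 7 to Day 13 in embryos made in vivo (horizontal) and in vitro (vertical), as log2 difference ± SE, for the 30 genes above background on at least 3 arrays; the dashed line marks equal change and colours mark the adjusted p below 0.05. HIF1A, EPAS1, PLOD2 and BNIP3L passed in both, while NDRG1, P4HA2 and TPI1 lie far below the line. NDRG1 is the farthest, at 2.51 in vivo and -2.37 in vitro.

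Among glycolytic enzymes the largest rise in vivo was that of TPI1, which interconverts the triose phosphates made by aldolase. Its log2 level was 6.11, 4.17 and 6.77 in the Day 7 in vivo pools and 10.59, 12.65 and 11.14 in the Day 13 in vivo pools. The Day 7 in vitro pools lay at 10.77, 9.39 and 10.80 and the Day 13 in vitro pools at 13.09, 12.94 and 11.15. The Day 7 in vivo pools thus stood apart from the other 9, which began more than 2 log2 units higher. The rise was 5.78 ± 0.87 (log2 difference ± SE, adjusted p = 0.00885) in vivo and 2.07 ± 0.87 (adjusted p = 0.237) in vitro. With the 3' minus 5' gap of GAPDH as a covariate the in vivo difference was 3.89 and with that of cyclophilin 5.32, with adjusted p = 0.0654 and 0.0552.

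PFKFB3 makes fructose 2,6-bisphosphate, the activator of phosphofructokinase. Its level was 7.01, 5.37 and 8.09 in Day 7 in vivo pools and 10.23, 10.65 and 11.37 in Day 13 in vivo pools. In vitro it was 8.36, 8.86 and 8.09 at Day 7 and 11.10, 10.19 and 10.61 at Day 13. All 6 Day 13 pools lay above all 6 Day 7 pools. The difference passed in vivo (3.93 ± 0.64, adjusted p = 0.0126) and not in vitro (2.19 ± 0.64, adjusted p = 0.0847). The in vivo call was lost with the GAPDH gap (4.04, adjusted p = 0.0898) and the cyclophilin gap (3.76, adjusted p = 0.0688) as covariates. In vitro the adjusted p was 0.0203 when only probe sets above background were tested.

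The muscle-type phosphofructokinase gene PFKM was below background, between 2.33 and 2.36, in all Day 7 pools. It reached 3.81, 5.02 and 4.85 in the Day 13 in vivo pools, and 3.50, 2.93 and 2.38 in the Day 13 in vitro pools, of which 1 exceeded background. It was at least 2.24-fold higher at Day 13 in vivo (adjusted p = 0.0103, and 0.0909 and 0.0581 with the GAPDH and the cyclophilin gap as covariates), and at least 1.03-fold in vitro (adjusted p = 0.482). The platelet-type gene PFKP was at the floor of 2.23 in all Day 7 pools and uneven at Day 13, at 2.28, 6.69 and 2.23 in vivo and 8.56, 6.51 and 2.92 in vitro. Its differences did not pass (adjusted p = 0.751 and 0.219). The liver-type gene PFKL, above background on all arrays, differed by 0.90 ± 0.72 and 1.11 ± 0.72 (adjusted p = 0.614 and 0.554).

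ALDOC, an aldolase isozyme, was the enzyme gene that fell in vitro. It was at 4.39, 3.52 and 4.51 in the Day 7 in vitro pools and at background in the other 9 pools, between 2.46 and 3.32. It was at least 1.68-fold lower at Day 13 than at Day 7 in vitro (adjusted p = 0.0165), a call that did not pass when Day 7 in vitro array 1, Day 7 in vitro array 3 or Day 13 in vitro array 1 was left out (adjusted p up to 0.0694). ALDOA, the main aldolase of most tissues, was bright on all arrays and differed by -0.23 ± 0.50 in vivo and -0.09 ± 0.50 in vitro (adjusted p = 1 for both).

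The remaining enzyme genes did not pass in either day comparison. In vivo, ENO1 (enolase) differed by 2.17 ± 0.59 (adjusted p = 0.105), PKM (pyruvate kinase) by 2.18 ± 0.83 (adjusted p = 0.266) and GAPDH by 1.16 ± 0.44 (adjusted p = 0.256), and for each of the 3 genes every Day 13 pool lay above every Day 7 pool. ENO1 passed (adjusted p = 0.0259) when only probe sets above background were tested. In vitro the same 3 genes differed by 0.79 ± 0.59, 0.84 ± 0.83 and 0.25 ± 0.44, with adjusted p between 0.614 and 1. PGK1, which makes the first ATP of the pathway, differed by 0.61 ± 0.36 in vivo and 0.60 ± 0.36 in vitro, PGAM1 by 0.74 ± 1.31 and -0.23 ± 1.31, and ENO3 by 0.66 ± 0.59 and -0.06 ± 0.59. The hexokinase gene HK1 was nearly level in vivo (-0.03 ± 1.16) and lower by its mean in vitro (-2.34 ± 1.16, adjusted p = 0.339). GPI, the isomerase of the next step, was the enzyme with a negative difference of more than 1 in both (-1.12 ± 0.54 and -1.36 ± 0.54, adjusted p = 0.429 and 0.202). It passed in both with the GAPDH gap as a covariate, at -2.49 (adjusted p = 0.0102) and -1.86 (adjusted p = 0.00521).

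The lactate dehydrogenase genes encode the subunits that convert pyruvate and lactate. LDHA was at 12.43, 12.51 and 12.31 in Day 7 in vivo pools, 13.63, 14.08 and 13.30 in Day 7 in vitro pools, 13.20, 13.02 and 13.43 in Day 13 in vivo pools, and 14.14, 14.17 and 13.64 in Day 13 in vitro pools. The Day 7 in vivo pools were the lowest 3 of the 12. Neither day comparison passed, at 0.80 ± 0.22 in vivo (adjusted p = 0.102) and 0.31 ± 0.22 in vitro (adjusted p = 0.577). A pair of dimmer LDHA probe sets, above background on all arrays, went the other way in vivo (-1.34 ± 0.51 and -0.16 ± 0.34) without passing. LDHB differed by 0.64 ± 0.34 and 0.53 ± 0.34 (adjusted p = 0.505 and 0.546).

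**Figure D2:**
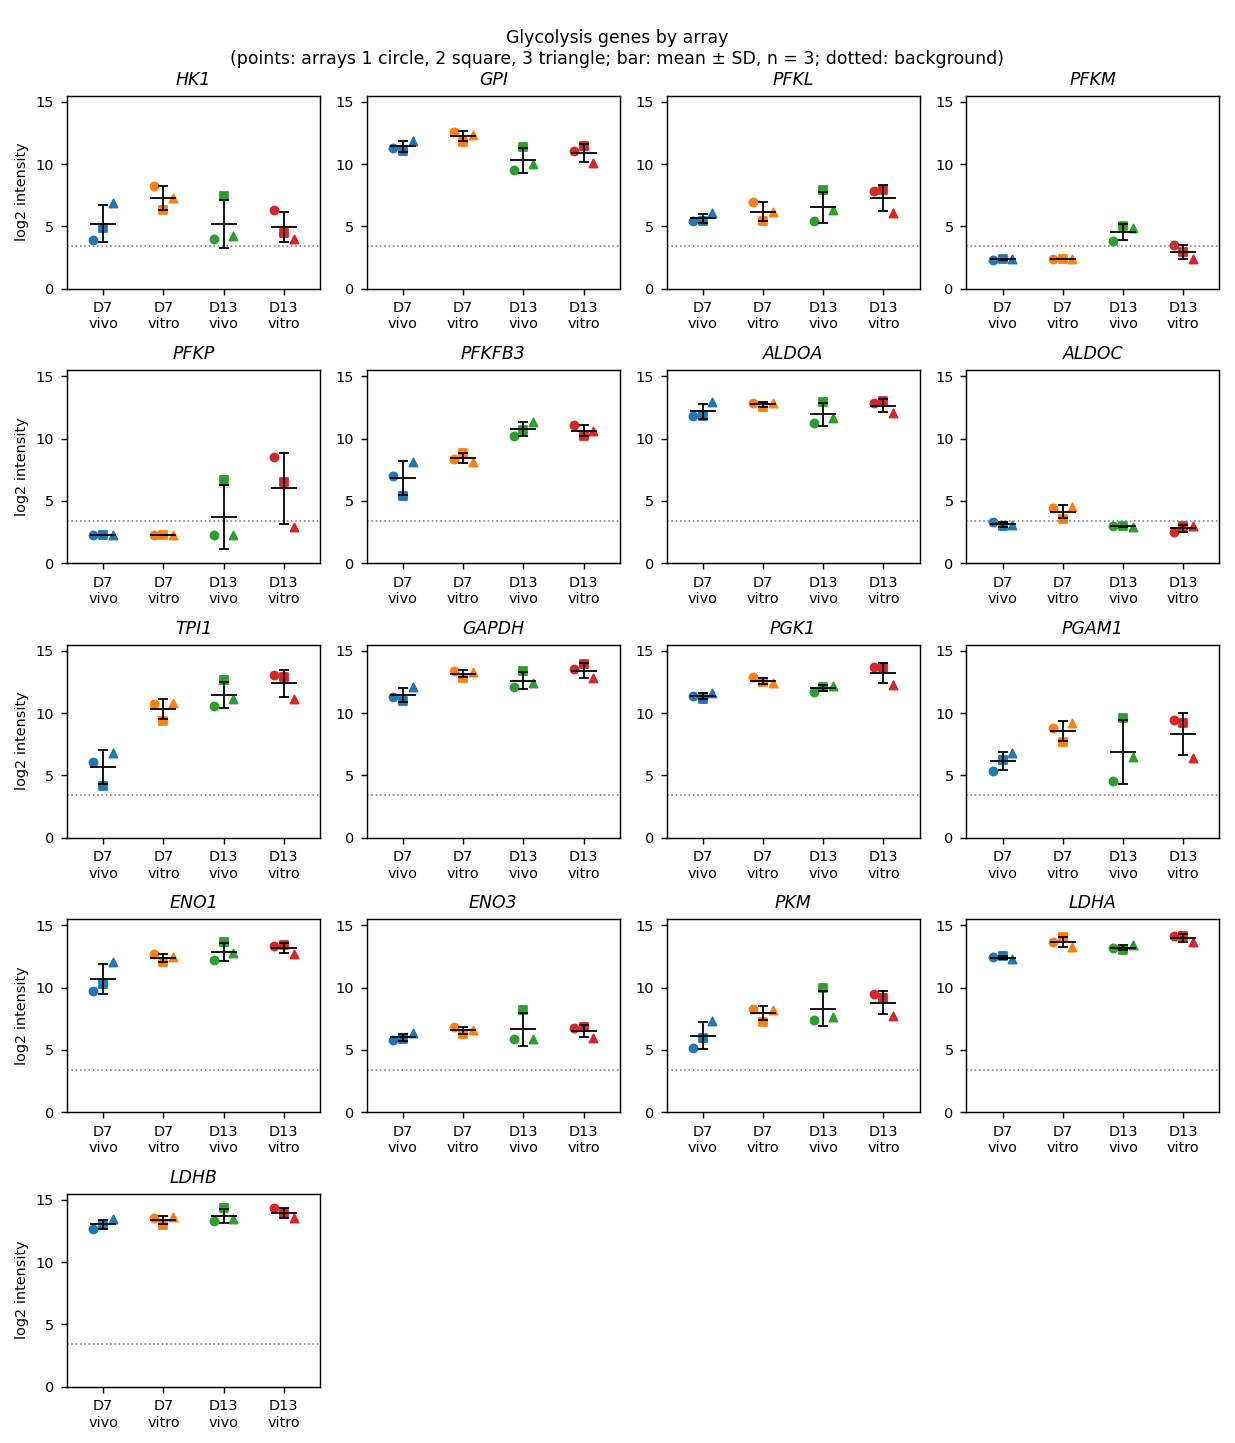
Log2 intensity of 17 glycolysis and lactate dehydrogenase genes in each pool of the 4 groups (circle, square and triangle for replicates 1, 2 and 3), with the mean ± SD of 3 pools and the background of 3.39 as a dotted line. TPI1 rises from a mean of 5.68 in the Day 7 in vivo pools to 12.39 in the Day 13 in vitro pools, and PFKM exceeds background at Day 13 alone.

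HIF1A and EPAS1 encode the oxygen-regulated subunits of the hypoxia-inducible factors. HIF1A was at 8.07, 9.28 and 8.52 in Day 7 in vivo pools and 11.49, 10.52 and 11.89 in Day 13 in vivo pools. In vitro it was at 9.98, 10.27 and 9.08 and then at 12.12, 12.40 and 11.33. All Day 13 pools lay above all Day 7 pools. The rise was 2.67 ± 0.50 in vivo (adjusted p = 0.0224) and 2.17 ± 0.50 in vitro (adjusted p = 0.0351). The in vivo rise did not pass when array 1 or array 3 of either day was left out (adjusted p up to 0.0793), or with the GAPDH or the cyclophilin gap as a covariate (adjusted p = 0.101 and 0.112). The in vitro rise did not pass when array 1 or 3 of Day 7, or array 1 or 2 of Day 13, was left out (adjusted p up to 0.129).

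EPAS1 was at 8.39, 8.0 and 8.13 in Day 7 in vivo pools and 11.42, 10.88 and 9.97 in Day 13 in vivo pools. In vitro the levels were 8.09, 8.93 and 8.72 at Day 7 and 10.75, 11.24 and 11.80 at Day 13. The days did not overlap in either origin. The log2 difference was 2.58 ± 0.41 in vivo (6.0-fold, adjusted p = 0.011) and 2.68 ± 0.41 in vitro (6.42-fold, adjusted p = 0.00644). Both calls held without any single array (adjusted p up to 0.0418 and 0.0297). A dimmer EPAS1 probe set, above background on 5 arrays, differed by 1.41 ± 0.72 and 2.31 ± 0.72 and did not pass (adjusted p = 0.475 and 0.107).

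EGLN1, a prolyl hydroxylase that marks HIF subunits for breakdown, went the other way by its means without passing. It differed by -1.10 ± 0.46 in vivo (adjusted p = 0.318) and -0.67 ± 0.46 in vitro (adjusted p = 0.577), with every Day 13 pool below every Day 7 pool of its origin. Its dimmer probe set differed by -0.94 ± 0.26 (adjusted p = 0.103) and -1.03 ± 0.26 (adjusted p = 0.0483). EGLN3, a further prolyl hydroxylase that HIF induces in many cells, was seen at 3.90 in 1 Day 7 in vivo pool and at background in the other 11.

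PLOD2 hydroxylates lysines in the telopeptides of collagen and so allows stable cross-links. It was at 4.53, 4.53 and 4.20 in Day 7 in vivo pools, and at 7.57, 8.10 and 7.05 in Day 7 in vitro pools. At Day 13 it reached 10.78, 9.73 and 10.81 in vivo and 9.99, 10.26 and 10.99 in vitro. Levels thus fell into 3 bands, Day 7 in vivo, Day 7 in vitro and Day 13 of both origins, with no overlap. The rise was 6.02 ± 0.39 in vivo (64.9-fold, adjusted p = 0.000112) and 2.84 ± 0.39 in vitro (7.17-fold, adjusted p = 0.00401). The in vivo rise passed under all 19 alternatives other than the second probe set. A second PLOD2 probe set, above background on 4 arrays only, gave 0.84 ± 0.68 in vivo (adjusted p = 0.618) and 3.88 ± 0.68 in vitro (adjusted p = 0.0117), so the probe sets disagree on the size of each change.

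P4HA2, the alpha subunit of a collagen prolyl hydroxylase, was at 2.63, 4.97 and 5.84 in Day 7 in vivo pools and at 7.97, 9.37 and 7.90 in Day 13 in vivo pools. It was at 8.45, 8.49 and 8.61 at Day 7 in vitro and at 8.67, 8.81 and 8.09 at Day 13 in vitro. As for TPI1, the Day 7 in vivo pools lay below the other 9. The difference was 3.93 ± 0.76 in vivo (adjusted p = 0.0253), which did not pass when array 2 of Day 7 or any one of arrays 1, 2 and 3 of Day 13 was left out (adjusted p up to 0.071) or with the GAPDH gap (3.03, adjusted p = 0.239) or the cyclophilin gap (4.23, adjusted p = 0.078) as a covariate, and 0.01 ± 0.76 in vitro (adjusted p = 1). P4HA1, the sister subunit, differed by 0.75 ± 0.48 and 0.84 ± 0.48 (adjusted p = 0.568 and 0.451). PLOD1, which hydroxylates helical lysines of collagen, differed by 0.13 ± 0.41 and 0.74 ± 0.41 (adjusted p = 1 and 0.426).

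BNIP3L and BNIP3 encode related mitophagy receptors of the outer mitochondrial membrane. BNIP3L was at 11, 10.93 and 10.81 in Day 7 in vivo pools and at 11.50, 11.33 and 11.01 in Day 7 in vitro pools. At Day 13 it was at 8.64, 8.39 and 9.33 in vivo and at 8.21, 8.62 and 8.71 in vitro. The 2 days were more than 1 log2 unit apart. BNIP3L fell by 2.12 ± 0.25 in vivo (4.35-fold, adjusted p = 0.00245) and fell by 2.77 ± 0.25 in vitro (6.8-fold, adjusted p = 0.000446).

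BNIP3 was at 9.87, 10.18 and 10.00 in Day 7 in vivo pools and at 10.16, 9.73 and 9.72 in Day 13 in vivo pools, which overlap. In vitro it was at 11.44, 11.83 and 11.30 at Day 7 and at 9.16, 9.44 and 9.95 at Day 13, with no overlap. It fell by 2.0 ± 0.23 in vitro (adjusted p = 0.0015) and differed by -0.15 ± 0.23 in vivo (adjusted p = 0.969).

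The 4 other measured targets did not pass in either day comparison. VEGFA, the vessel growth factor, differed by 0.58 ± 0.39 in vivo and -1.16 ± 0.39 in vitro (adjusted p = 0.568 and 0.138), and its other probe set by -0.80 ± 0.55 and -1.55 ± 0.55. NDRG1, a stress-induced differentiation gene, differed by 2.51 ± 0.74 in vivo (adjusted p = 0.136) and -2.37 ± 0.74 in vitro (adjusted p = 0.107), with no overlap of the days in either. With only probe sets above background tested, VEGFA passed in vitro (adjusted p = 0.0487) and NDRG1 in both origins (adjusted p = 0.034 in vivo and 0.0264 in vitro). ADM, the peptide hormone adrenomedullin, differed by -0.58 ± 0.34 and -0.19 ± 0.34. DDIT4, an inhibitor of mTORC1, differed by 0.17 ± 0.68 and -0.74 ± 0.68. The poly-A spike-ins were lowest in the Day 13 in vitro arrays, and with their mean as a covariate 0 of the 6 in vitro calls passed, with adjusted p from 0.0501 (BNIP3L) to 1 (HIF1A) and the same signs.

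**Figure D3:**
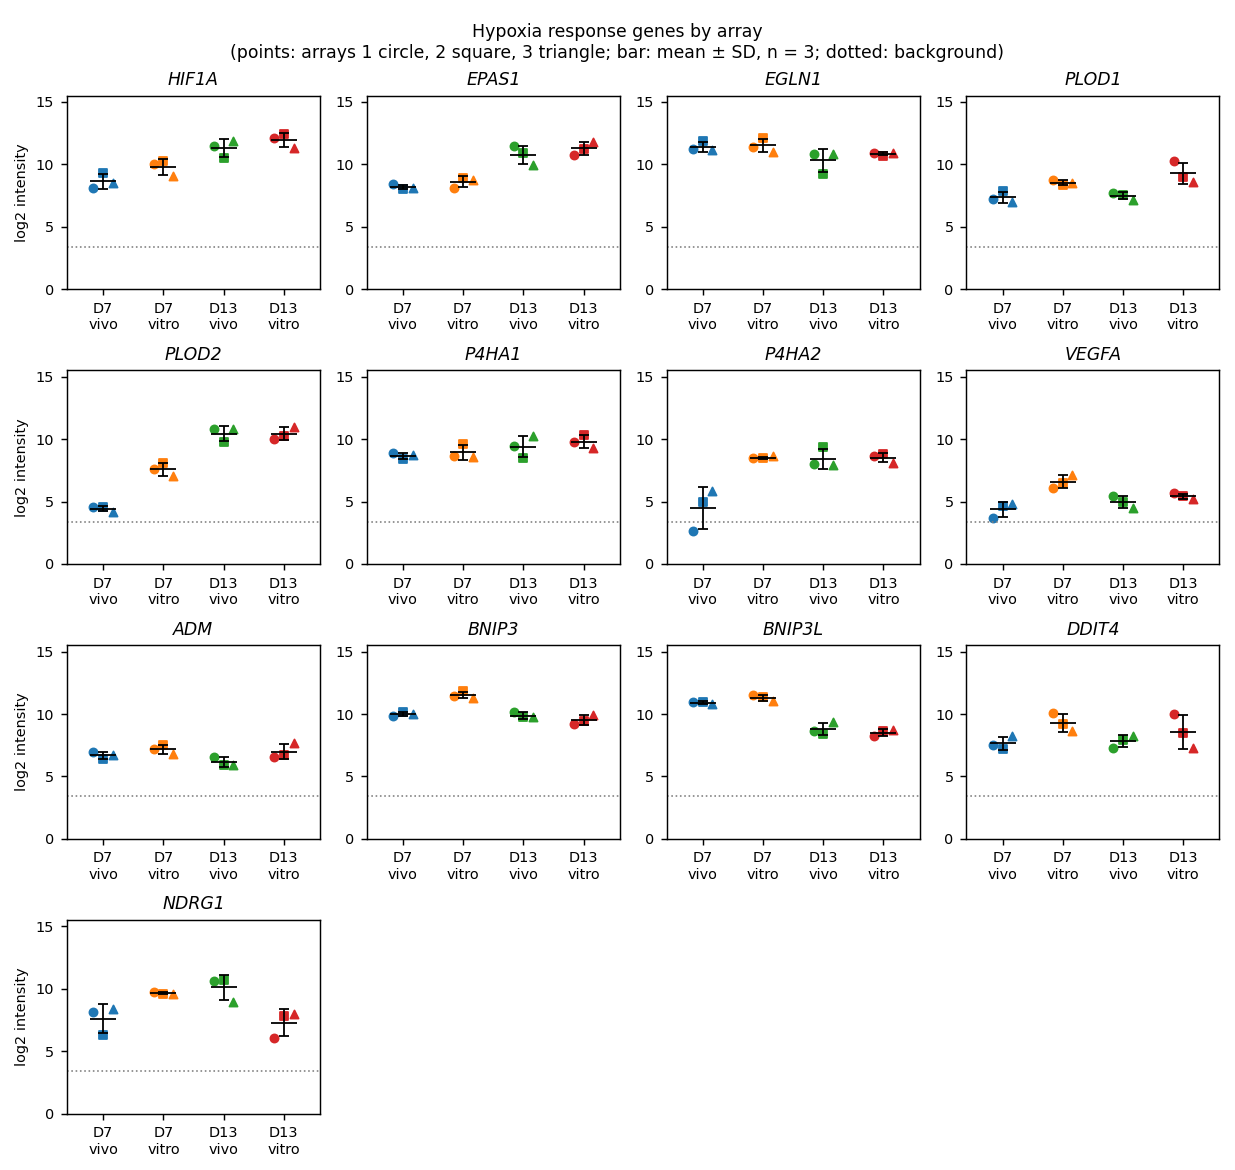
Log2 intensity of 13 hypoxia response genes in each pool (circle, square and triangle for replicates 1, 2 and 3), with the mean ± SD of 3 pools and the background as a dotted line. PLOD2 means are 4.42, 7.57, 10.44 and 10.41 from left to right, and BNIP3L is near 11 at Day 7 and below 9.4 at Day 13 in both origins.

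Blastocysts made in vitro and in vivo were then compared at Day 7, before transfer. Means were higher in vitro for 29 of the 32 genes, the exceptions being PFKP and ENO2, at the floor on these arrays, and EGLN3, while 55.8% of the probe sets above background had a higher mean in vitro. PLOD2 alone passed, higher in vitro by 3.15 ± 0.39 (8.89-fold, adjusted p = 0.0259). That is 1 of 32, where 0.208% of all probe sets passed, and 15 of the 32 had an unadjusted p below 0.05, against 6.67% of all probe sets. The median difference was 1.16 over the 32 genes and 0.06 over the probe sets above background. The Day 7 in vivo pools also enter the in vivo day comparison, so the values of both contrasts share those arrays.

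For 15 of the 32 genes every in vitro pool lay above every in vivo pool, and for 0 the reverse. Over all probe sets 5.57% had non-overlapping groups with in vitro higher and 3.72% with in vitro lower, and in vitro was higher for 11.4% of those above background on at least 1 of the 6 arrays. The 15 genes came from each role but oxygen sensing. They were PFKFB3, ALDOC, TPI1, GAPDH, PGK1, PGAM1 and LDHA of glycolysis, the collagen hydroxylase genes PLOD1, PLOD2 and P4HA2, and VEGFA, BNIP3, BNIP3L, DDIT4 and NDRG1.

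TPI1 differed by 4.64 ± 0.87 (adjusted p = 0.123), P4HA2 by 4.04 ± 0.76 (adjusted p = 0.122) and BNIP3 by 1.51 ± 0.23 (adjusted p = 0.0618). VEGFA was at 3.64, 4.62 and 4.82 in vivo and 6.09, 6.52 and 7.15 in vitro, a difference of 2.22 ± 0.39 (adjusted p = 0.1), and its other probe set differed by 1.67 ± 0.55. These 4 genes, with PLOD2, passed when only the 10591 probe sets above background were tested, of which 0.765% passed, with adjusted p of 0.0276 for TPI1, P4HA2 and BNIP3 and 0.0279 for VEGFA. GAPDH was at 11.31, 10.94 and 12.10 in vivo and 13.37, 12.82 and 13.31 in vitro, and LDHA differed by 1.25 ± 0.22. Their adjusted p were 0.348 and 0.093. The dimmer pair of LDHA probe sets differed by 0.19 ± 0.51 and 0.49 ± 0.34 without passing. PGK1 differed by 1.21 ± 0.36, PFKFB3 by 1.62 ± 0.64, DDIT4 by 1.66 ± 0.68, NDRG1 by 2.06 ± 0.74 and PLOD1 by 1.17 ± 0.41, with adjusted p from 0.47 to 0.704.

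The differences with overlapping pools were mostly smaller. HK1 differed by 2.06 ± 1.16, PKM by 1.80 ± 0.83, ENO1 by 1.68 ± 0.59 and HIF1A by 1.15 ± 0.50, with adjusted p from 0.623 to 0.836. EPAS1 (0.41 ± 0.41), P4HA1 (0.29 ± 0.48), LDHB (0.35 ± 0.34), ALDOA (0.57 ± 0.50), PFKL (0.52 ± 0.72) and EGLN1 (0.10 ± 0.46) lay within about 1 SE of 0.

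The 3' minus 5' gap of GAPDH moved with this comparison, at 5.61 ± 0.04 (SD, n = 3) in vivo against 3.69 ± 0.43 in vitro. With it as a covariate the median over the genes was 0.55 with 20 of 32 differences above 0, and PLOD2 differed by 4.34 (adjusted p = 0.00541). GAPDH is itself among the genes, and cyclophilin is not; its gap was 4.86 ± 0.28 against 4.33 ± 0.25, and as a covariate it left a median of 0.84 with 28 of 32 above 0, while PLOD2 (3.31, adjusted p = 0.129) no longer passed. With arrays centred on ribosomal protein genes, which shifted the median of all probe sets by -0.52, the median was 0.65 with 22 of 32 above 0, and TPI1 (4.12, adjusted p = 0.0246) and P4HA2 (3.52, adjusted p = 0.0415) were the genes that passed. The PLOD2 difference kept its direction and did not pass in 12 of the 19 alternatives other than the second probe set, among them those with in vivo array 1, in vivo array 3 or in vitro array 1 left out (adjusted p up to 0.089), with adjusted p up to 0.188 over all of them. Its second probe set was below background in both groups.

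**Figure D4:**
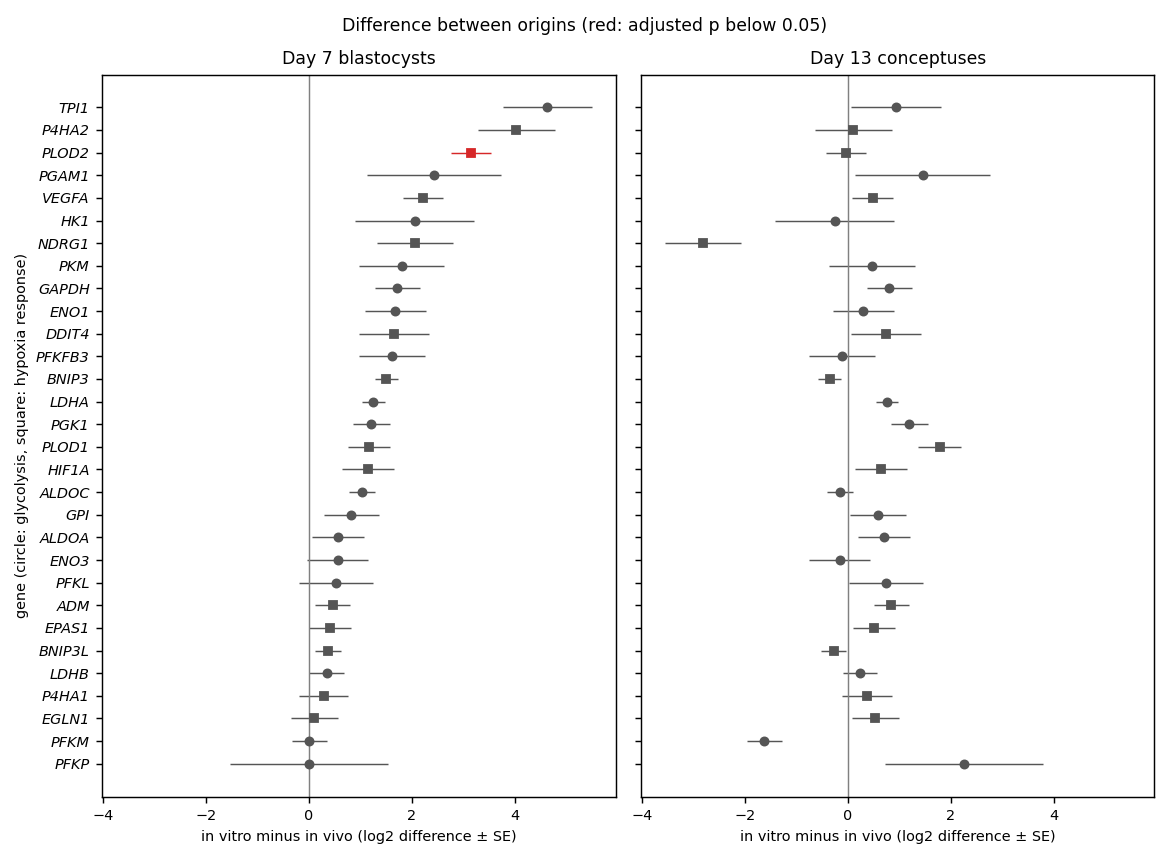
In vitro minus in vivo log2 difference ± SE at Day 7 (left) and Day 13 (right) for 30 genes, ordered by the Day 7 difference; circles are glycolysis genes, squares hypoxia response genes, and red marks an adjusted p below 0.05. At Day 7 only PFKP is not above 0 and PLOD2 is red, while at Day 13 differences lie on both sides of 0, with NDRG1 at -2.82 and PLOD1 at 1.79; PFKP, at 2.26, rests on pools of which 3 of 6 are below background.

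At Day 13 the same comparison of origins found 0 of the 32 genes at an adjusted p below 0.05 (limma), where 1.2% of all probe sets passed, and 6 genes had an unadjusted p below 0.05, against 16% of all probe sets. The median was 0.48 over the genes and 0.08 over the probe sets above background. Groups did not overlap for 5 of the 32 genes, 3 higher and 2 lower in vitro, where 8.73% and 6.01% of all probe sets did so. PGK1 was at 11.72, 12.11 and 12.14 in vivo and at 13.70, 13.61 and 12.26 in vitro, and differed by 1.20 ± 0.36 (adjusted p = 0.163). It passed without Day 13 in vitro replicate 3 (1.67, adjusted p = 0.00245), as did LDHA (0.94, adjusted p = 0.0401, against 0.77 and 0.141 with all arrays). PLOD1, at 7.72, 7.57 and 7.17 in vivo and 10.24, 8.97 and 8.61 in vitro, differed by 1.79 ± 0.41 (adjusted p = 0.0835) and passed without in vitro replicate 3 (2.12, adjusted p = 0.0192). A second PLOD1 probe set, above background on 1 array only, went the other way without passing (-0.75 ± 0.17, adjusted p = 0.0876).

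The genes lower in vitro at Day 13 without overlap were PFKM (-1.62 ± 0.34, adjusted p = 0.0681, and -1.99 with 0.0178 without in vivo replicate 1) and NDRG1. For PFKM 1 of the 3 in vitro pools exceeded background, and with the others set at background the difference was -1.13. NDRG1 was at 10.66, 10.72 and 8.98 in vivo and at 6.06, 7.83 and 8.0 in vitro, a difference of -2.82 ± 0.74 (adjusted p = 0.118). NDRG1 and PLOD1 passed when only probe sets above background were tested (adjusted p = 0.0277 and 0.0221), of which 11.5% passed. PFKM passed there too (adjusted p = 0.0192). It met that filter only through the Day 13 in vivo pools, where it is high, so this adds no support for its difference. PLOD2 (-0.03 ± 0.39), P4HA2 (0.11 ± 0.76), TPI1 (0.93 ± 0.87), VEGFA (0.48 ± 0.39), BNIP3 (-0.35 ± 0.23) and HIF1A (0.65 ± 0.50) had overlapping pools at Day 13. The poly-A spike-ins averaged 10.92 ± 1.90 in vitro against 14.45 ± 0.18 in vivo, and with them as a covariate the median over the genes was 0.01.

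Whether the day effect itself differed between the origins was tested as an interaction. It passed for 0 of the 32 genes (limma), where 0.4% of all probe sets passed, and 8 genes had an unadjusted p below 0.05, against 10.1% of all probe sets. The median was -0.68 over the genes and 0.04 over the probe sets above background, and over the genes it was -0.05 with centring on ribosomal protein genes, -0.25 with the GAPDH covariate and -1.19 with the poly-A covariate. The smallest adjusted p were those of PLOD2 (-3.18 ± 0.55, adjusted p = 0.0638), BNIP3 (-1.86 ± 0.32, adjusted p = 0.0638) and NDRG1 (-4.88 ± 1.05, adjusted p = 0.128). When only probe sets above background were tested the same 3 genes passed (adjusted p = 0.0166, 0.0303 and 0.0292), where 2.62% of those probe sets did. The day difference of NDRG1 was positive in vivo and negative in vitro. Neither passed over all probe sets, and both passed with only those above background tested (adjusted p = 0.034 and 0.0264). P4HA2 (-3.92 ± 1.07, adjusted p = 0.224), TPI1 (-3.70 ± 1.23, adjusted p = 0.328) and VEGFA (-1.74 ± 0.56, adjusted p = 0.305) did not pass. For HIF1A (-0.50 ± 0.71), EPAS1 (0.10 ± 0.58) and BNIP3L (-0.64 ± 0.35) the difference between the origins was within 2 SE of 0.

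Set by group means, Day 7 in vivo was the lowest of the 4 groups for 20 of the 32 genes and the highest for 1, EGLN3. Over all probe sets it was the lowest for 13.2%, and for 25.7% of those above background. Day 13 in vitro was the highest for 14 genes and Day 7 in vitro for 11, which were the lowest for 5 and 0. Among probe sets above background these groups were the highest for 35.2% and 25.6% and the lowest for 31.2% and 17.1%.

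The enzymes also moved together between replicate pools, a pattern noticed in these values and given as a description. For 13 enzyme and lactate dehydrogenase genes above background on all arrays, Day 13 in vivo replicate 2 was the highest of its group for 11, by 1.15 log2 units from the group mean on average. It was the highest for 42.6% of all probe sets above background on all arrays. Shares of probe sets for which an array was the lowest are not given here. Day 13 in vitro replicate 3 was the lowest of its group for 13, at -0.86 on average. It was the highest for 0 of the 13, and for 35.7% of those probe sets. The GAPDH 3' minus 5' gap was 2.85 in the first of these arrays against 4.62 and 4.57 in its group, and 4.17 in the second against 2.53 and 2.61. Day 7 in vivo replicate 3 was the highest of its group for 12 genes, at 0.69, and for 36.4% of those probe sets. Its gap was 5.59 where its group had 5.58 and 5.65. The cyclophilin gap did not order the Day 13 in vivo arrays in the same way, at 4.23 in replicate 1, the lowest for 12 genes, 4.29 in replicate 2 and 4.56 in replicate 3, and GAPDH is itself among the 13 genes. Without Day 13 in vivo replicate 2 the median in vivo day difference over the 32 genes was the lowest of those with an array left out, 0.27.

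**Figure D5:**
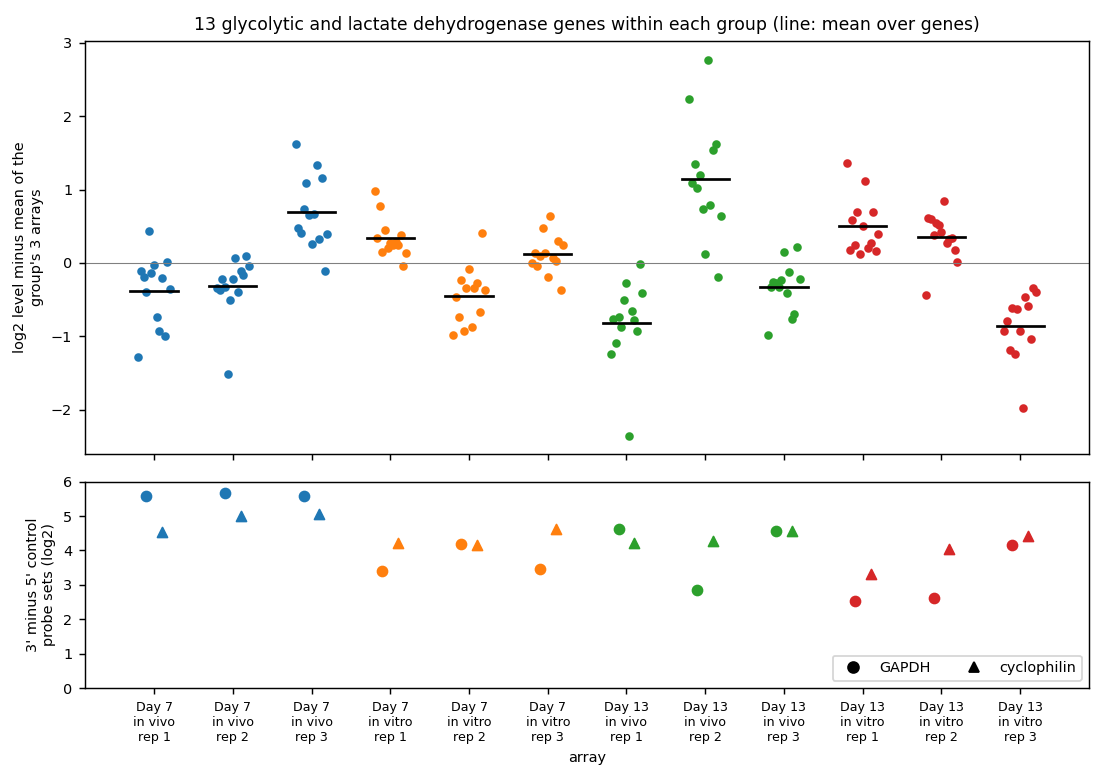
Upper panel: log2 level of 13 glycolytic and lactate dehydrogenase genes on each array minus the mean of the group's 3 arrays, with the mean over genes as a line. Lower panel: 3' minus 5' difference of the GAPDH (circle) and cyclophilin (triangle) control probe sets on the same arrays. Day 13 in vivo replicate 2 averages 1.15 above its group with a GAPDH gap of 2.85.

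Other genes of the same pathways came from a separate list of 91, of which 66 were measured and 44 lay above background on at least 3 arrays. In vivo 3 rose and 3 fell from Day 7 to Day 13, in vitro 2 rose and 6 fell, or 9.09% and 12.1% of the 66 where 3.79% and 7.51% of all probe sets passed. Of all 24016 probe sets 10591 lay above background on at least 3 arrays, a smaller part than the 44 of these 66. In the comparisons of origin and in the interaction 0 of the 66 passed (limma). The monocarboxylate carrier gene SLC16A3, which exports lactate, was at 5.42, 4.46 and 4.46 at Day 7 in vivo and 6.15, 7.31 and 8.28 at Day 13 in vivo. In vitro it was at 4.76, 4.5 and 4.56 and then at 8.60, 7.95 and 9.20. It rose in both, by 2.46 ± 0.54 (adjusted p = 0.046) and 3.98 ± 0.54 (adjusted p = 0.00386). The heme oxygenase gene HMOX1 (5.18 ± 0.91, adjusted p = 0.0174) and the repressor gene BHLHE40 (2.63 ± 0.51, adjusted p = 0.0254) rose in vivo, and differed by 1.04 ± 0.91 and 1.07 ± 0.51 in vitro without passing.

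Among genes that fell, the mitochondrial adenylate kinase gene AK4 fell by 2.67 ± 0.46 in vivo and fell by 3.30 ± 0.46 in vitro (adjusted p = 0.016 and 0.00429). The transferrin receptor gene TFRC, of iron uptake, fell by 3.03 ± 0.46 and fell by 2.52 ± 0.46 (adjusted p = 0.00887 and 0.0135). KDM3A, a histone demethylase induced by HIF, fell by 2.28 ± 0.46 in vivo (adjusted p = 0.0304) and differed by -1.64 ± 0.46 in vitro (adjusted p = 0.0723). In vitro PDK3, a kinase that turns off pyruvate dehydrogenase, fell by 2.72 ± 0.46 (adjusted p = 0.0105). CITED2, which competes with HIF1A for its coactivators, fell by 1.77 ± 0.30 (adjusted p = 0.00955), and the mitochondrial gluconeogenic gene PCK2 fell by 1.98 ± 0.34 (adjusted p = 0.011). P4HB, the beta subunit of collagen prolyl hydroxylase, rose by 1.60 ± 0.26 in vitro (adjusted p = 0.00868) and differed by 0.92 ± 0.26 in vivo (adjusted p = 0.118). Of the 6 measured glucose entry genes 0 passed in any comparison; the transporter gene SLC2A1 lay between 8.52 and 10.67 on all arrays and differed by -0.62 ± 0.43 in vivo and -0.03 ± 0.43 in vitro. At Day 7 the median difference between the origins over the 66 genes was 0.04.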

How the data were processed

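The deposited table holds 1 column of log2 probe set intensities per array, normalized between arrays by the authors; RMA, GCRMA and limma stand in the submitters' processing notes, with no version, and whether RMA or GCRMA gave these intensities is not given in the sources used here. The 112 control probe sets served as measures of each array, and 24016 probe sets were tested. Gene symbols came from the platform annotation: 13292 probe sets carried 1 symbol and 86 several, which were not used.

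All 12 arrays entered 1 fit of 4 group means by limma 3.58.1 (lmFit, eBayes without trend) in R 4.3.3, two-sided, with Benjamini-Hochberg adjustment over all probe sets and calls below 0.05. Errors of differences are SE from this fit, which had 8 residual degrees of freedom. "At least" folds are bounds set at background, with the adjusted p of the fit to the deposited values. The number of arrays limits the precision. The fit was tested on simulated data. The genes, lists and the rule for naming (all genes called, a fixed set of the list, and up to 6 called genes of the pathway list per comparison) were chosen with earlier results of these data known; the background, the cyclophilin covariate, the fit without 2 arrays and the pattern between replicates were chosen after the values were seen. Replicate numbers did not pair the arrays: 3 of 18 same-numbered pairs correlated above 0.1 after removal of group means, with a median of -0.06. Alternatives covered normalization, centring, a filter on dim probe sets, covariates, a replicate term, variance estimation, array weights, other probe sets and arrays left out. Marker and pathway lists are described by counts alone.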

Additional observations from a re-analysis of the deposited data

How the results depend on the processing

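Of the 15 gene results that passed, 290 values under alternatives kept the call in 220 and lost it in 69, and 1 turned: the second probe set of PLOD2 gave -0.000946 at Day 7. Of the 135 that did not pass among the 30 genes above background on at least 3 arrays, 37 passed under at least 1 alternative, and 234 of their 2740 values changed sign without passing. In the sentences that follow, counts are given in the order in vivo day effect, in vitro day effect, Day 7 origin, Day 13 origin and interaction, which had 911, 1804, 50, 288 and 96 probe sets and 8, 6, 1, 0 and 0 of the 32 genes; values left out moved by less than 1.5 times, or for medians by less than 0.35, the pooled SD between replicate arrays of the genes' mean level.

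With only probe sets above background tested, fewer tests being adjusted for, there were 1478, 2886, 81, 1215 and 278 probe sets, and 5, 3 and 3 genes in the last 3 comparisons. PFKM, among the genes at Day 13, met this filter only through the Day 13 in vivo pools. Centring on ribosomal protein genes gave 1730 in vivo (349 higher, against 408 of 911), 700 at Day 13 and 190 in the interaction (140 higher, against 35 of 96), with 56 at Day 7 (16 higher, against 31 of 50), 2 genes at Day 7, 3 at Day 13, and medians of 0.22 in vivo, 0.65 at Day 7 and -0.0515 in the interaction; it shifted the median of all probe sets by -0.48, 0.15, -0.52, 0.11 and 0.63. Centring on array medians gave 477 probe sets at Day 13, and 2 genes at Day 7 and in the interaction; quantile normalization and the mean over probe sets of a gene left 0 at Day 7. With the replicate block there were 568 in vivo, 12 at Day 7, 119 at Day 13 and 47 in the interaction, and 0 genes at Day 7. PLOD2 at Day 7 then had an adjusted p of 0.154. Whether arrays of the same number belong together is not known. The poly-A covariate gave 197 in vitro, 29 at Day 7, 9 at Day 13 and 11 in the interaction, with 0 genes in vitro and at Day 7 and medians of -0.24 in vitro, 0.0115 at Day 13 and -1.19 in the interaction. The GAPDH covariate gave 513 in vivo, 14 at Day 7, 174 at Day 13 and 175 in the interaction, with 4, 1 and 2 genes in vivo, at Day 13 and in the interaction, and medians of 0.0554, 0.55, -0.0283 and -0.25 in vivo, at both origins' Day 7 and Day 13, and in the interaction. The cyclophilin covariate gave 501, 967, 18 and 96 for the first 4, with 3 genes in vivo and 0 at Day 7. Trended robust variances gave 564, 1129, 6, 100 and 20, with 0 genes at Day 7. Array weights, which did not reach their convergence tolerance, gave 604, 8237, 172, 2235 and 460, with 24, 5, 3 and 2 genes from the in vitro day effect on. Only the arrays of the groups compared gave 241, 787, 3 and 0 for the first 4, with 1, 3 and 0 genes for the first 3 (at Day 13 origin this leaves fewer samples; with all arrays limma had 6 genes at an unadjusted p below 0.05). Without Day 13 in vitro replicates 1 and 2 together there were 902 in vitro, 13 at Day 7, 459 at Day 13 and 424 in the interaction, with 0 genes at Day 7 and medians of -0.10 at Day 13 and -1.07 in the interaction. The causes were not tested.

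With single arrays left out the probe sets ranged from 676 to 923, 913 to 2898, 41 to 116, 135 to 2058 and 64 to 1083, the genes from 6 to 8, 4 to 8, 0 to 2, 0 to 3 and 0 to 3, and the medians from 0.27 to 0.83, -0.00158 to 0.53, 1.03 to 1.26, 0.20 to 0.60 and -0.91 to -0.29. The number of arrays, 3 per group, limits all of these.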
